A study of Mus musculus with 18 samples.

Results

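Mock-treated peritoneal macrophages from mice carrying the TLR4-K810R change were compared with those from TLR4-WT mice to describe the gene programs that differed before any endotoxin was added. The comparison rested on 6 of the 18 RNA-seq libraries of the series, 3 of each genotype, all labelled as control treatment. In the K810R mice the lysine at that position of TLR4 is replaced by arginine. According to the methods, CRISPR/Cas9 was used in embryonic stem cells, at C57BL/6 background. Chimeric mice were crossed with C57BL/6 mice, so the change is inherited and not confined to macrophages. The methods do not say whether both copies of the gene carried it. The other libraries, used here for reference, were mock-treated macrophages of the TLR4-K730R genotype, in which another lysine is replaced by arginine, and macrophages of the 3 genotypes given LPS at 100 ng/ml for 6 hours, again with 3 libraries per group. According to the study's general methods, peritoneal cells were drawn out with thioglycolate before lavage. The labels do not say whether the libraries of a group came from separate animals, so p-values measure only the spread between these libraries, which may be technical.

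TLR4 is the receptor for bacterial lipopolysaccharide. With its partners MD-2 and CD14 it signals through the adaptor MyD88, which drives NF-kB and inflammatory cytokines, and through TRIF, which drives interferon-β. Interferon binds its receptor and activates transcription factors, STAT2 and IRF9 among them, which occupy the interferon-stimulated response element in the promoters of antiviral genes. Macrophages keep part of this antiviral program on at a low level even when they are not stimulated.

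Each gene's value was its level in FPKM, a read level scaled to gene length and library size, taken from the first-exon or last-exon entries of the deposited tables, and differences are on the log2(FPKM + 1) scale with their standard error (SE). Because of the added 1, they understate the change of genes of low level. A gene is said to have risen or fallen only where its adjusted p from limma was below 0.01. The tables used give FPKM and no read counts, so the sequencing depth is unknown and an exact 0 can be a failed estimate as well as absence. Macrophage genes were abundant in all 6 libraries: the 18 of 20 macrophage identity genes with a value summed to 27600 to 29100 FPKM in TLR4-WT and 23700 to 26900 FPKM in TLR4-K810R. One library, TLR4-K810R replicate 3, stood apart from the others. Its correlation with the TLR4-WT libraries was 0.941 to 0.945, against 0.959 to 0.962 for the other TLR4-K810R libraries, over the genes tested. Counts of the main gene lists are given below with and without it.

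In total 153 of 9707 genes tested differed between mock-treated TLR4-K810R and TLR4-WT macrophages. Of these, 90 rose in TLR4-K810R (0.927% of genes tested) and 63 fell (0.649%), and 121 of the 153 changed by at least 2 times. At an unadjusted p under 0.05 from limma, 917 of the 9707 genes were higher and 449 lower. The counts at that level given for single lists below are to be read beside these. The 3 libraries of each genotype did not overlap for any of the 153, although the same was true of 20.8% of all genes tested. The genes that fell and the genes that rose had different levels. Of the 63 that fell, 56 had a mean of at least 10 FPKM in TLR4-WT, whereas 41 of the 90 that rose had a mean below 1 FPKM there. TLR4-K810R replicate 3 had the highest value of the 3 for 85 of the 90 genes that rose. The number of genes called was 58 without this library, 18 higher and 40 lower, of which 53 changed by at least 2 times. It was 74, 53 and 50 without TLR4-WT replicates 1, 2 and 3, and 105 and 129 without TLR4-K810R replicates 1 and 2. A fit on the 6 libraries alone, which estimates the spread from fewer samples, called 27 genes, 8 higher and 19 lower. Of the genes described below, Ifit1, Ifit3, Oas1a, Oas3, Oasl1, Usp18, Rsad2, Ddx58, Zbp1, Ifi27l2a, Ly6i, Retnla, Fcna, Marco, Ccl5, Reg3b, Reg3g, Apoa4 and Guca2b kept their calls in that fit, and the other called genes lost theirs.

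**Figure D1:**
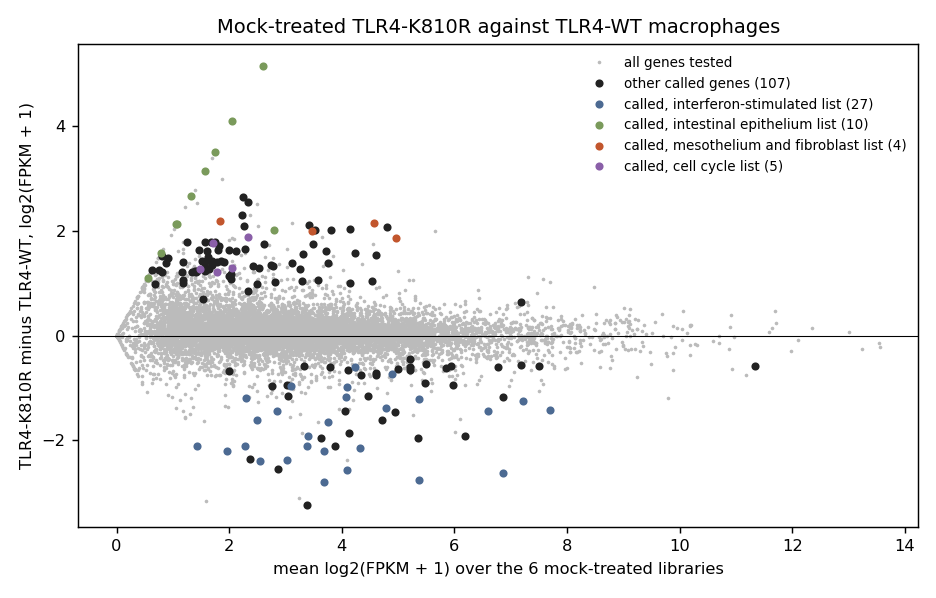
Each point is a gene, with its mean log2(FPKM + 1) over the 6 mock-treated libraries on the x axis and the difference TLR4-K810R minus TLR4-WT on the log2(FPKM + 1) scale on the y axis; coloured points passed an adjusted p below 0.01. The 27 interferon-stimulated genes lie below 0 over a wide range of levels, while the 10 intestinal genes lie above 0, most of them on the line of genes with no signal in TLR4-WT.

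Interferon-stimulated genes made up the largest named group among the genes that fell. Of 62 genes on this list, 55 were tested, 27 fell and none rose. Of the 55, 53 had a difference below 0 and the other 2 were listed at 0 in all 6 libraries. The list's median difference was −1.17, against 0.0659 over all genes tested. Summed over the list, the level was 1810 to 2150 FPKM in TLR4-WT and 640 to 718 FPKM in TLR4-K810R. Without TLR4-K810R replicate 3 the number of list members called lower was 20, and in the fit on the 6 libraries alone it was 14. Fewer cells of a type and less RNA per cell cannot be told apart in such bulk samples.

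Among the interferon-induced Ifit genes, whose products bind viral RNA, 4 of 5 fell. Ifit3 was at 30.0, 34.6 and 34.1 FPKM in the TLR4-WT libraries and at 4.17, 3.91 and 3.60 FPKM in those of TLR4-K810R, a log2 difference of −2.79 (SE 0.16, adjusted p = 1.47e-07). Ifit1 was at 17.2, 19.4 and 15.9 FPKM against 2.69, 2.66 and 2.41 FPKM, with a difference of −2.36 (SE 0.20). The libraries within each genotype lay close together and the groups were far apart for both genes. Ifit2 and Ifit3b also fell, with log2 differences of −2.40 and −2.11, but Ifit2 lost its call in 5 of the 6 fits that left out 1 library. Ifit3 and Ifit3b are near copies of each other, so their separate values are uncertain.

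Of the oligoadenylate synthetases, which sense double-stranded RNA and activate RNase L, and their Oasl relatives, 5 of 7 tested members fell and all 7 had differences below 0. Oas3 was at 41.2, 33.3 and 48.7 FPKM in TLR4-WT and at 7.19, 5.39 and 5.78 FPKM in TLR4-K810R, a difference of −2.56 (SE 0.18, adjusted p = 4.45e-07). Oas1a was more abundant and fell less, from 61.6, 61.1 and 63.5 FPKM to 27.9, 27.3 and 23.7 FPKM. Oasl1, known as a brake on Irf7 translation, had a difference of −2.20, Oas2 of −2.20 and Oasl2 of −2.15. Oasl2 was the least certain of the 5, since it lost its call in each of the 6 fits that left out 1 library and its difference was −0.0976 when last exons alone gave the gene value. Oasl1 also lost its call with last exons alone (adjusted p = 0.111), and Oas2 in the fit on the 6 libraries alone (adjusted p = 0.0475).

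The promoters of these genes are shown because a larger share of the lower genes than of all genes held the response element core in the RefSeq promoter windows of GRCm38.p6, which run from 250 bases before to 50 bases after each gene start. The letters searched were GAAA, any 2 bases and GAAA again, on either strand, where the other strand reads TTTC, any 2 bases and TTTC. Overlapping matches were counted. A match was present in 12 of the 46 lower genes with a promoter entry (26.1%), in 4 of 68 higher genes (5.88%) and in 311 of all 7703 tested genes with an entry (4.04%). Among the lower genes on the interferon-stimulated list it was present in 8 of 19 (42.1%), and among the other lower genes in 4 of 27 (14.8%). These shares are a description of the letters in the windows and not of binding. The 200 bases before the start of 4 lower genes are given 5′ to 3′ on the gene's strand, with each match in capitals.
Ifit3, chr19:34583329-34583528, plus strand: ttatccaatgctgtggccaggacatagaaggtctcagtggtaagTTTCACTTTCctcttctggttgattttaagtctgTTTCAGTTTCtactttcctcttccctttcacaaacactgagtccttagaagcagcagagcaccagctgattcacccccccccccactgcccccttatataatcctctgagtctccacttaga
Ifit1, chr19:34640689-34640888, plus strand: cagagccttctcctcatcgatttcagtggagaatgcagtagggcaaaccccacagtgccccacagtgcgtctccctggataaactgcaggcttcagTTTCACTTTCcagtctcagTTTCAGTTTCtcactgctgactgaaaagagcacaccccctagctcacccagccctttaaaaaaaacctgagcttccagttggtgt
Oas3, chr5:120777660-120777859, minus strand: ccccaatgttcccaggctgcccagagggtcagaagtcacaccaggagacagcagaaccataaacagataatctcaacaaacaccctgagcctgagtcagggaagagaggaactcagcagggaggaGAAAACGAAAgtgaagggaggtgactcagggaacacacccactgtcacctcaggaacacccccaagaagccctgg
Rsad2, chr12:26456453-26456652, minus strand: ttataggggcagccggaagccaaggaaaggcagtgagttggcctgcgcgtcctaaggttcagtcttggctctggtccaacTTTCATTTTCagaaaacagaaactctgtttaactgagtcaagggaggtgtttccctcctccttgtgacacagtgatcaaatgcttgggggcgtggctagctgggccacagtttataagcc
Ifit3 and Ifit1 each held 2 matches in this stretch, the first starting 156 and 104 bases before the gene start, and Oas3 and Rsad2 each held 1, starting 75 and 120 bases before it.

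Several regulators and sensors of the interferon response were among the genes that fell. Irf7, the transcription factor that amplifies type I interferon production, was at 139.7, 74.6 and 116.7 FPKM in TLR4-WT and at 18.3, 14.3 and 13.02 FPKM in TLR4-K810R, a difference of −2.75 (SE 0.36, adjusted p = 0.000387). Usp18, which removes ISG15 from proteins and restrains the interferon receptor, was at 22.6, 23.1 and 16.6 FPKM against 4.58, 3.39 and 4.10 FPKM. The highest TLR4-K810R library stayed below the lowest TLR4-WT library for both. The cytosolic RNA sensor Ddx58 (RIG-I) fell by 1.45 on the log2 scale and Dhx58 (LGP2) by 1.17. Ddx58 lost its call in each of the 6 fits that left out 1 library and when the replicate number was fitted as a block. The nucleic acid sensor Zbp1 fell by 1.66 on the log2 scale with an SE of 0.11. The transcription factor genes Stat2 and Irf9, chosen for description after their values were seen, did not reach the threshold. Stat2 had a difference of −0.83 (SE 0.20, adjusted p = 0.0276) and Irf9 of −0.51 (SE 0.15, adjusted p = 0.0968).

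Antiviral effectors of other families moved the same way. Rsad2 (viperin) was at 17.3, 21.8 and 19.3 FPKM in TLR4-WT and at 4.64, 4.10 and 4.50 FPKM in TLR4-K810R, but it lost its call in each of the 6 fits that left out 1 library. Mx1, a GTPase gene, had a difference of −2.11 (SE 0.29, adjusted p = 0.00075), and lost its call with last exons alone and in the fit on the 6 libraries alone. Bst2 (tetherin), which holds budding virions at the cell surface, was at 228.7, 121.7 and 141.4 FPKM against 60.7, 48.8 and 64.5 FPKM. Ifi27l2a was one of the most abundant of the group and went from 298.6, 235.5 and 344.7 FPKM to 45.3, 42.3 and 50.5 FPKM. Isg15, the ubiquitin-like modifier, was listed at 0 in all 6 libraries and gave no comparison.

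**Figure D2:**
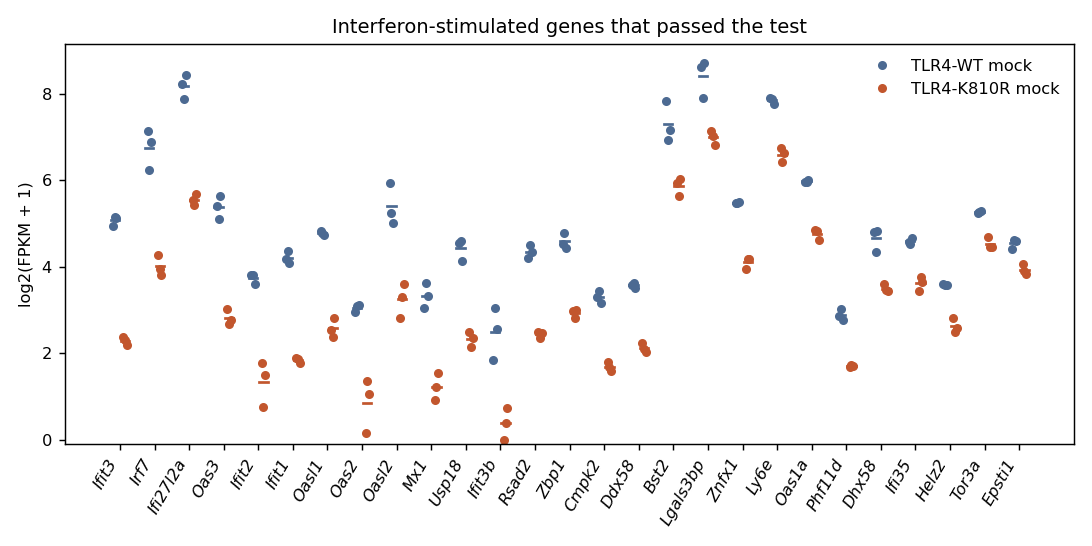
For the 27 interferon-stimulated genes that fell, each point is the log2(FPKM + 1) value of 1 mock-treated library and each short line the mean of 3 libraries, with TLR4-WT in blue and TLR4-K810R in orange. All TLR4-K810R points lie below the TLR4-WT points of the same gene, and the gap narrows from Ifit3 on the left, with a difference of −2.79, to Epsti1 on the right.

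The separate list of interferon-inducible GTPases and other interferon-γ targets, which does not hold Mx1, gave no call. Of 22 genes on that list 10 were tested and 0 passed the test by limma, with 1 higher and 0 lower at an unadjusted p under 0.05. Their median difference was −0.141. Gbp2, a guanylate binding protein, was at 12.4, 15.5 and 12.02 FPKM in TLR4-WT and at 16.4, 12.1 and 10.7 FPKM in TLR4-K810R, and the libraries overlapped. The difference between this list and the interferon-stimulated list was not tested.

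Of 19 tested genes of class I antigen presentation 4 fell and none rose, 17 had a difference below 0, and the median was −0.593. H2-D1, a classical class I heavy chain, was at 3109.95, 2921 and 3427 FPKM in TLR4-WT and at 2236, 2226 and 1885 FPKM in TLR4-K810R, a difference of −0.58 (SE 0.11, adjusted p = 0.00743). H2-M2 showed the largest change, from 16.4, 17.7 and 15.7 FPKM to 1.45, 1.65 and 3.25 FPKM, a difference of −2.54 (SE 0.17, adjusted p = 4.08e-07). The light chain gene B2m was at 2446, 2800.2 and 2097 FPKM against 1537, 1544 and 1606 FPKM without passing the test (adjusted p = 0.0188). Grouped by name after the values were seen, the nonclassical H2-Q, H2-T and H2-M genes had all 7 tested members below 0, of which H2-M2, H2-M3, H2-Q7, H2-T22 and H2-T24 fell. Of these, H2-M3 lost its call in 5 of the 6 fits that left out 1 library and H2-T22 in 3. The fit without TLR4-K810R replicate 3 was among them for both. H2 genes resemble each other, so reads may have been split between them, and H2-D1 lost its call in each of the 6 fits that left out 1 library. The number of class I genes called was 2 without TLR4-WT replicate 2 or 3 or TLR4-K810R replicate 2 or 3, and 3 without TLR4-WT replicate 1 or TLR4-K810R replicate 1, and the fit on the 6 libraries alone called 0. Class II genes gave no call by limma in 7 tested genes, with 0 higher and 2 lower at an unadjusted p under 0.05 and a median of −0.218.

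A few genes of alternative activation and of macrophage scavenging also fell. Retnla (RELMα), a secreted product of alternatively activated macrophages, showed the largest fall of all genes called. It was at 33.8, 28.7 and 30.2 FPKM in TLR4-WT and at 2.88, 1.28 and 3.42 FPKM in TLR4-K810R, a difference of −3.23 (SE 0.33, adjusted p = 4.17e-05). Fcna (ficolin A), a lectin that activates complement, was at 47.0, 50.7 and 52.3 FPKM against 18.9, 15.9 and 17.998 FPKM. Both kept their calls in every fit that left out a library and in every other setting in which they were tested. The list of 28 alternative activation genes as a whole had 19 tested genes, 2 lower and 0 higher, with a median of −0.0965.

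Marco, a scavenger receptor for bacteria and particles, was the only 1 of 24 tested scavenger and phagocytic receptors to fall. It was at 134.8, 136 and 152 FPKM in TLR4-WT and at 39.2, 29.6 and 42.3 FPKM in TLR4-K810R, a difference of −1.91 (SE 0.13, adjusted p = 4.08e-07). Cd5l (AIM), secreted by tissue macrophages, was at 162, 167 and 199 FPKM against 82.0, 70.4 and 78.1 FPKM. Neither gene's groups overlapped. Among 15 tested resident peritoneal macrophage genes Cd5l fell and Gata6, the transcription factor of resident peritoneal macrophages, rose, with a median of −0.433. Gata6 was at 1.22, 1.47 and 1.13 FPKM in TLR4-WT and at 4.69, 4.23 and 10.9 FPKM in TLR4-K810R, and it lost its call in 4 of the 6 fits that left out 1 library, TLR4-K810R replicate 3 among them. Gata6 is also expressed in mesothelium, whose markers are described below. Among 13 tested genes of monocyte-derived macrophages Ly6c2 and Itgax (CD11c) fell and Plac8 rose. Both Itgax and Plac8 lost their calls in 5 of the 6 fits that left out 1 library, the one without TLR4-K810R replicate 3 among them. Ly6c2, a surface marker of inflammatory monocytes, was at 32.2, 37.5 and 27.7 FPKM against 9.42, 10.8 and 5.27 FPKM. Its relative Ly6i, one of the 15 largest falls, had a difference of −2.36 (SE 0.23, adjusted p = 2.88e-05).

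Of 40 tested inflammatory genes downstream of NF-kB 2 fell and none rose, with 8 lower and 4 higher at an unadjusted p under 0.05 and a median of −0.0494. The summed level of the list was 1910 to 2240 FPKM in TLR4-WT and 1150 to 1190 FPKM in TLR4-K810R. Much of it was Saa3, an acute-phase serum amyloid gene, at 1269, 1527 and 1253 FPKM in TLR4-WT and 622, 599 and 551 FPKM in TLR4-K810R. Its groups did not overlap, but its difference of −1.19 did not pass the test (SE 2.59, adjusted p = 0.903), in a fit that also held LPS-treated libraries at 1.63 and 13.4 FPKM. It passed by limma when entries lying off the named gene were kept (adjusted p = 0.00735). Ccl5 (RANTES), a T-cell and monocyte chemokine, was at 80.2, 76.2 and 82.2 FPKM in TLR4-WT and at 22.1, 18.5 and 19.2 FPKM in TLR4-K810R, a difference of −1.95 (SE 0.15, adjusted p = 1.42e-06). Icam1, an adhesion molecule, was at 45.2, 42.1 and 47.5 FPKM against 31.3, 25.7 and 31.1 FPKM, a difference of −0.60, and lost its call without TLR4-WT replicate 1 or 3 and in the fit on the 6 libraries alone. Ccl9, a chemokine for myeloid cells, fell by 0.95 on the log2 scale, which made 2 of the 24 tested chemokines and receptors. Ass1, which makes the arginine precursor argininosuccinate, was at 35.5, 37.1 and 19.0 FPKM against 6.50, 7.78 and 4.39 FPKM. In the complement list C4b and Itgax (a chain of complement receptor 4) fell among 12 tested genes. Each lost its call in 5 of the 6 fits that left out 1 library, the one without TLR4-K810R replicate 3 among them.

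The receptor itself and its signalling partners did not pass the test. Tlr4 was at 11.6, 14.2 and 9.33 FPKM in TLR4-WT and at 11.9, 11.7 and 13.9 FPKM in TLR4-K810R, a difference of 0.10 (SE 0.15, adjusted p = 0.838). The adaptor Myd88 was at 30.1, 30.1 and 29.3 FPKM against 26.9, 30.2 and 26.0 FPKM. The libraries of the genotypes overlapped for both. None of the 25 tested genes of the TLR4 signalling list was called by limma, with 2 higher and 0 lower at an unadjusted p under 0.05 and a median of 0.0442. Over all 9707 genes tested, 917 were higher and 449 lower at that level. A replaced codon cannot be read from gene levels, so these values do not check the genotype labels. Around Tlr4, 17 other tested genes lie within 5 Mb on either side, and none of these was called by limma, with 2 at an unadjusted p under 0.05 and differences from −0.527 to 0.734. Of all 9707 genes tested, 1366 had an unadjusted p under 0.05.

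Among the genes that rose, those with the largest differences were genes of the intestinal epithelium. Of 40 genes on this marker list 37 had a value and 21 passed the filter on low values, and 10 of the 21 rose. Members low in mock-treated TLR4-WT could pass through libraries of other groups, so their share says little. Reg3b, an antibacterial lectin secreted by gut epithelium, was listed at 0, 0.0761 and 0 FPKM in TLR4-WT and at 32.4, 29.5 and 45.7 FPKM in TLR4-K810R (adjusted p = 0.000331). Its neighbour Reg3g was listed at 0 in all 3 TLR4-WT libraries and at 15.6, 14.1 and 18.9 FPKM in TLR4-K810R. Reg3b and Reg3g are similar in sequence, and their separate values are uncertain. Also listed at 0 throughout TLR4-WT were Lypd8, which keeps flagellated bacteria off the colon surface, at 9.01, 5.76 and 20.7 FPKM in TLR4-K810R, the apolipoprotein Apoa4 at 7.61, 5.33 and 11.3 FPKM and the fatty acid carrier Fabp1 at 3.498, 3.98 and 10.3 FPKM. The mucins and mucus proteins Muc3, Fcgbp and Tff3, the peptide hormone precursor Guca2b and the keratin Krt8 completed the 10. Without TLR4-K810R replicate 3 the number called was 3 (Reg3b, Reg3g and Lypd8), without any 1 of the TLR4-WT libraries it was also 3, and without TLR4-K810R replicate 1 or in the fit on the 6 libraries alone it was 5.

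The summed level of the intestinal list differed between groups and also between libraries of 1 group. It was 4.0, 4.44 and 4.67 FPKM in mock-treated TLR4-WT and 115, 104 and 237 FPKM in mock-treated TLR4-K810R. Mock-treated TLR4-K730R had 133, 120 and 83.1 FPKM. After LPS it was 3.13, 38.1 and 56.0 FPKM in TLR4-WT, 93.6, 98.0 and 91.5 FPKM in TLR4-K730R and 41.9, 7.43 and 5.42 FPKM in TLR4-K810R. In FPKM the widest range within a group was that of mock-treated TLR4-K810R, whereas LPS-treated TLR4-WT and TLR4-K810R had the largest ratios of highest to lowest library. What part this signal has in the other differences was not tested.

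**Figure D3:**
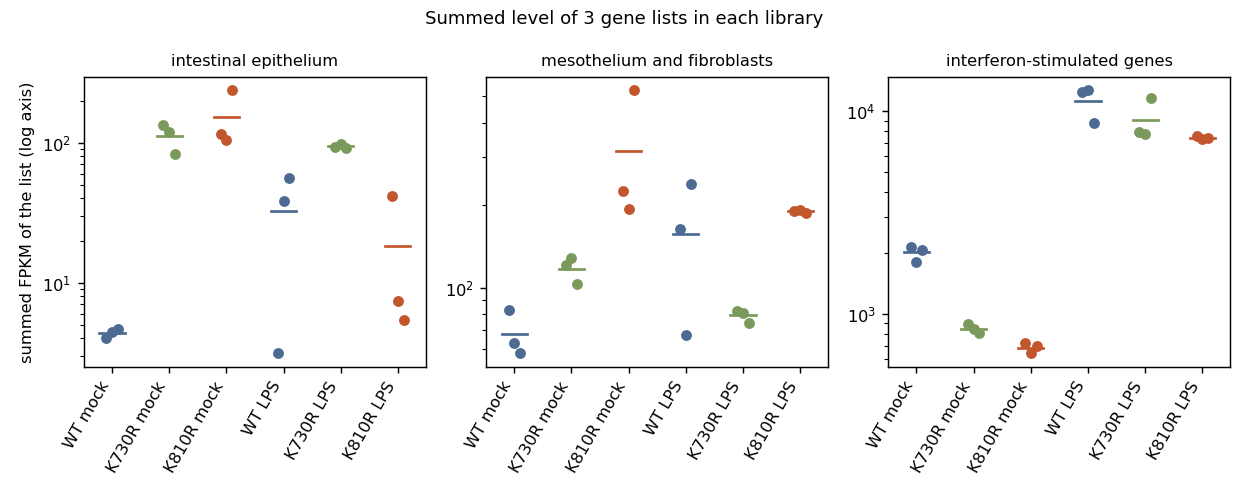
Each point is the summed FPKM of all list members with a value in 1 library, on a log axis, and each line the mean of 3 libraries, for the intestinal epithelium, the mesothelium and fibroblast, and the interferon-stimulated lists in the 6 groups (WT in blue, K730R in green, K810R in orange). Mock-treated TLR4-WT has the lowest intestinal sums of the mock groups and the highest interferon-stimulated sums of the mock groups, while TLR4-K810R mock replicate 3 has the highest intestinal and mesothelial sums of all libraries.

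Genes of the mesothelium and of fibroblasts, the cells that line the peritoneal cavity, formed the second marker group that rose. Of 18 genes on the list 12 were tested, 4 rose and none fell, and 11 had a difference above 0. Of all 9707 genes tested, 5864 had a difference above 0. The filter on low values took any 3 of the 18 libraries, so members low in mock-treated TLR4-WT could pass through other groups. Wt1, a transcription factor of mesothelium, was at 0.904, 0.368 and 0.786 FPKM in TLR4-WT and at 5.15, 5.27 and 10.5 FPKM in TLR4-K810R, a difference of 2.19 (SE 0.33, adjusted p = 0.0014). The collagen genes Col1a1 and Col1a2 and the proteoglycan gene Dcn (decorin) were the other 3. Dcn was at 4.79, 4.97 and 3.99 FPKM against 16.8, 13.2 and 43.0 FPKM. The groups did not overlap for these genes, and TLR4-K810R replicate 3 was the highest library for each. Without that library 1 member of the list, Wt1, was called, and the number was 0 without TLR4-WT replicate 2 and 1 without TLR4-WT replicate 3. The fit on the 6 libraries alone called 0 of them. The summed level of the list was 57.6 to 83.0 FPKM in TLR4-WT and 226, 194 and 526 FPKM in TLR4-K810R, and mock-treated TLR4-K730R had 103 to 128 FPKM. After LPS the sums of TLR4-WT, at 164, 67.1 and 239 FPKM, overlapped those of TLR4-K810R, at 187 to 193 FPKM.

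Several extracellular matrix genes rose as well. Grouped by name after the values were seen, all 14 tested collagen chains had differences above 0, with a median of 1.32, and Col1a1, Col1a2, Col4a1, Col6a1 and Col6a2 rose. Of 4 tested laminin chains Lamb1 and Lamc1 rose. The limit of the filter given for the mesothelium and fibroblast list holds for these genes too. Serpinh1 (HSP47), the chaperone of collagen folding, was at 13.5, 11.2 and 13.1 FPKM in TLR4-WT and at 45.8, 40.9 and 92.9 FPKM in TLR4-K810R, a difference of 2.07 (SE 0.35). Acta2, the smooth muscle actin, was at 14.6, 11.8 and 13.6 FPKM against 34.2, 31.8 and 61.1 FPKM. Tm4sf1, a surface protein of endothelial and mesenchymal cells, was at 1.59, 0.729 and 0.534 FPKM against 7.56, 9.23 and 17.8 FPKM and kept its call in each fit that left out 1 library but not in the fit on the 6 libraries alone. TLR4-K810R replicate 3 was the highest library for Serpinh1, Acta2 and Tm4sf1, as it was for the mesothelium and fibroblast markers above. Serpinh1 and Acta2 lost their calls without that library, as did all 5 called collagen genes and Lamc1. These calls were also lost in other fits that left out 1 library. Acta2 lost its call in all 6, Col1a1, Col4a1, Col6a2 and Lamc1 in 5, Serpinh1 in 4 and Col1a2 and Col6a1 in 3. The part of those cells in these differences was not tested.

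Cell cycle genes were the only other list with several higher members. Of 31 tested genes 5 rose and none fell, 30 had a difference above 0, and the median was 0.717. Of all 9707 genes tested, 5864 had a difference above 0. The summed level of the list overlapped, at 292, 260 and 270 FPKM in TLR4-WT and 289, 349 and 401 FPKM in TLR4-K810R. Its most abundant members, Hmgb2, Mcm3, Mcm5 and Pcna, were not called. Ube2c, a ubiquitin-conjugating enzyme of the anaphase-promoting complex, was at 1.41, 1.67 and 1.93 FPKM in TLR4-WT and at 5.38, 5.34 and 5.84 FPKM in TLR4-K810R, a difference of 1.29 (SE 0.21, adjusted p = 0.003). Cdc20, an activator of that complex, was at 1.25, 1.86 and 1.83 FPKM against 6.68, 8.26 and 11.8 FPKM. Ccna2 (cyclin A2), the kinase Plk1 and Birc5 (survivin) were the other 3, all from levels below 2 FPKM in TLR4-WT. The number called was 0 without TLR4-K810R replicate 3, without TLR4-WT replicate 2 or without TLR4-WT replicate 3, 2 without TLR4-WT replicate 1, 3 without TLR4-K810R replicate 1 and 0 in the fit on the 6 libraries alone. The intestinal and mesothelial marker sums given above moved in the same direction, and their part in this was not tested.

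Single genes of other groups rose as well. Mt2, a zinc-binding metallothionein, was at 9.75, 9.62 and 10.3 FPKM in TLR4-WT and at 27.4, 22.9 and 49.2 FPKM in TLR4-K810R. Ndrg1, a gene induced by hypoxia and differentiation, was at 8.49, 4.96 and 9.07 FPKM against 17.3, 13.5 and 18.1 FPKM. Mt2 lost its call in 4 of the 6 fits that left out 1 library and Ndrg1 in 2. The fit without TLR4-K810R replicate 3 was among them for both. Bcar1 (p130Cas), an adaptor of integrin signalling, was at 0.856, 0.762 and 1.03 FPKM against 3.44, 3.36 and 4.29 FPKM, a difference of 1.32 (SE 0.14, adjusted p = 6.98e-05). Its call was kept in each fit that left out 1 library but lost with first exons alone and in the fit on the 6 libraries alone. Grb10, an adaptor that restrains insulin receptor signalling, rose by 2.09 on the log2 scale. Angptl7, an angiopoietin-like protein, and Pde2a, a cyclic nucleotide phosphodiesterase, had differences of 2.30 and 2.55. Angptl7 lost its call in 4 of the 6 fits that left out 1 library and Pde2a in all 6, and the difference of Pde2a was 0.14 when entries lying off the named gene were kept. Of the 153 genes, 66 of those that rose and 22 of those that fell were on no list.

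Several housekeeping and metabolic programs gave no call by limma. The 35 lysosomal genes had a median of −0.019, with 1 higher and 1 lower at an unadjusted p under 0.05. Of all 9707 genes tested, 917 were higher and 449 lower at that level. The 22 cholesterol synthesis genes had a median of 0.23, with 5 higher and 0 lower at that level, and the 61 cytosolic ribosomal protein genes a median of 0.233, with 6 higher and 0 lower. The 42 respiratory chain genes had 4 higher and 1 lower at that level, and the 15 glycolysis genes 0 in either direction. The tested markers of leukocytes other than macrophages gave no call either. Only 1 marker each of T cells, NK cells and eosinophils and 3 of dendritic cells were tested, too few to compare those cells. At an unadjusted p under 0.05 the 8 tested neutrophil genes had 3 higher and 2 lower, the 5 mast cell genes 0 higher and 1 lower, and the 4 B-cell genes none in either direction.

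The same genes were then looked up in the LPS-treated libraries, which share no sample with the mock-treated comparison. LPS-treated TLR4-K810R and TLR4-WT differed in 13 genes (0.134% of genes tested), a number that was 283 without LPS-treated TLR4-WT replicate 3 and 1 to 6 without any other single LPS-treated library of these genotypes. Of the 63 genes that were lower in mock-treated TLR4-K810R, 52 had a difference below 0 after LPS, as did 3571 of all 9707 genes tested, and the median was −0.302 against 0.106 over all genes tested. For 37 of the 63 all TLR4-K810R libraries lay below all TLR4-WT libraries, which was so for 7.89% of all genes tested. Of the 90 higher genes 70 had a difference above 0 after LPS, with a median of 0.434, whereas 6135 of all 9707 genes tested did. For 26 of the 90 all TLR4-K810R libraries lay above all TLR4-WT libraries, against 17.4% of all genes. Of the 40 lower and 18 higher genes called without mock-treated TLR4-K810R replicate 3, 34 had a difference below 0 and 17 above 0 after LPS, and the groups lay apart in the same direction for 22 and 9. Retnla, Fcna and Cd5l were called lower in both conditions. After LPS, Retnla and Cd5l kept their calls in 1 of the 6 fits that left out a library, the one without TLR4-WT replicate 3, whereas Fcna kept its call in all 6, and in the fit on the LPS-treated libraries of these genotypes alone none of the 3 was called. Retnla was at 25.3, 29.5 and 13.4 FPKM in LPS-treated TLR4-WT and at 3.18, 2.87 and 2.87 FPKM in LPS-treated TLR4-K810R, a difference of −2.51 (SE 0.33, adjusted p = 0.00297). For Fcna the difference after LPS was −1.60 (SE 0.17, adjusted p = 0.000602) and for Cd5l −1.04 (SE 0.16, adjusted p = 0.00813).

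Over the 55 tested interferon-stimulated genes the median difference after LPS was −0.536, against −1.17 in mock-treated cells. Among the LPS-treated TLR4-WT libraries replicate 3 stood apart, with an interferon-stimulated sum of 8790 FPKM against 12400 and 12700 FPKM, while the LPS-treated TLR4-K810R libraries had 7330 to 7530 FPKM. The median after LPS was −0.686 without that library and −0.42 without TLR4-WT replicate 1. Ifit3 was at 538, 545 and 386 FPKM in LPS-treated TLR4-WT and at 307, 313 and 324 FPKM in LPS-treated TLR4-K810R, a difference of −0.62 with an adjusted p of 0.054. Oas3 was at 117.4, 125.02 and 95.2 FPKM against 117.5, 94.8 and 89.0 FPKM, and the groups overlapped. The responses to LPS of the genotypes differed in 12 genes (0.124% of genes tested), among them Ifit3, Oas3, Zbp1, H2-M2, Marco and Ccl5. This test uses the mock-treated libraries again, so a low starting level in TLR4-K810R enters it directly.

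**Figure D4:**
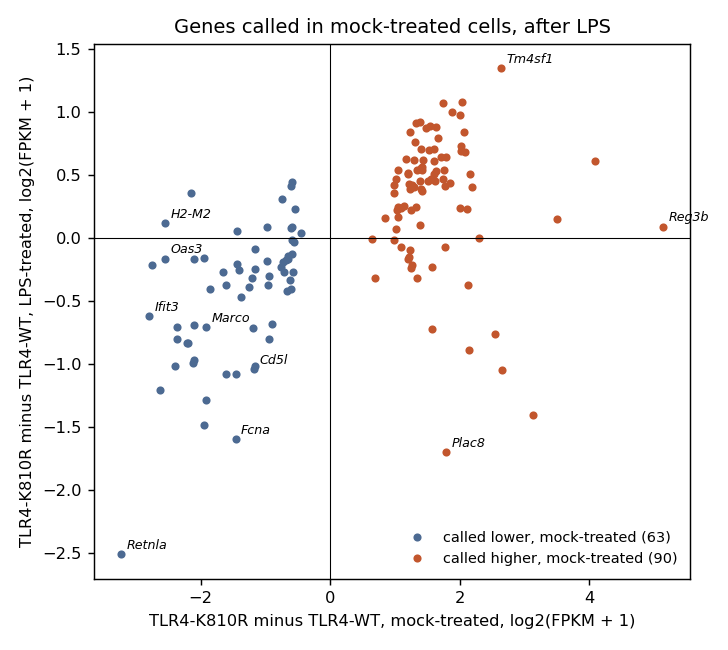
Each point is 1 of the 153 genes called in mock-treated cells, with the difference TLR4-K810R minus TLR4-WT in mock-treated libraries on the x axis and in LPS-treated libraries on the y axis, both on the log2(FPKM + 1) scale. Of the 63 lower genes (blue) 52 lie below 0 on the y axis and of the 90 higher genes (orange) 70 lie above it, against 3571 below and 6135 above among all 9707 genes tested.

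The TLR4-K730R libraries, which belong to neither group compared, gave each gene's own response to LPS. For 56 of the 63 lower genes all LPS-treated TLR4-K730R libraries lay above all mock-treated ones, against 13.8% of all genes tested. For the 90 higher genes the LPS-treated libraries lay above the mock-treated ones in 10 and below them in 48, and 45.0% of all genes lay below. Among the genes called without mock-treated TLR4-K810R replicate 3 the numbers were 35 of 40 lower genes above and 9 of 18 higher genes below.

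Mock-treated TLR4-K810R and TLR4-K730R differed in 8 genes (0.0824% of genes tested), of which 7 were lower in TLR4-K810R and Bcar1 was higher. Marco, Ccl5 and Hp kept their calls in each of the 6 fits that left out 1 library. Ass1 and Ccl8 kept theirs in 2, Retnla and Ptges in 1 and Bcar1 in 0, and none of the 8 was called when these groups alone were fitted. This comparison shares the TLR4-K810R libraries with the one above, so the levels are given side by side. Retnla was at 21.0, 16.8 and 15.5 FPKM in TLR4-K730R, below TLR4-WT and above TLR4-K810R, a difference of −2.46 between the mutants (SE 0.33, adjusted p = 0.00312). Marco was at 105, 109 and 111 FPKM in TLR4-K730R, a difference of −1.54 (SE 0.13, adjusted p = 3.59e-05), and Ccl5 at 64.1, 66.2 and 49.9 FPKM, a difference of −1.54 (SE 0.15). For these 3 genes TLR4-K730R lay nearer to TLR4-WT than to TLR4-K810R. Ptges, the inducible prostaglandin E synthase, reached 16.9, 44.8 and 42.5 FPKM in the TLR4-K730R libraries but 6.09, 6.02 and 5.23 FPKM in those of TLR4-K810R. Hp (haptoglobin), the haemoglobin scavenger, was at 428, 453 and 408 FPKM against 197, 164 and 165 FPKM, with TLR4-WT between them at 256, 254 and 294 FPKM. Ass1 and the monocyte chemokine Ccl8 were the remaining 2.

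**Figure D5:**
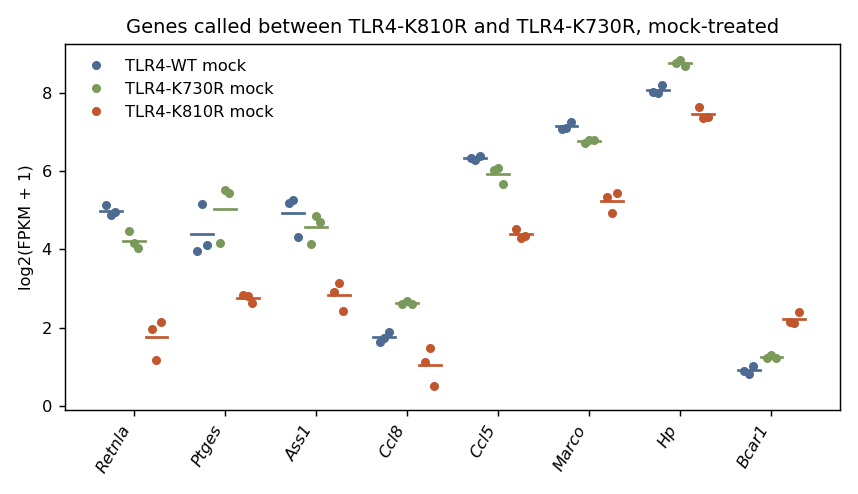
For the 8 genes that differed between mock-treated TLR4-K810R and TLR4-K730R, each point is the log2(FPKM + 1) value of 1 mock-treated library and each short line the mean of 3, with TLR4-WT in blue, TLR4-K730R in green and TLR4-K810R in orange. The TLR4-K810R libraries lie below both other genotypes for the first 7 genes and above both for Bcar1.

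The summed level of the interferon-stimulated genes was lower in both mutants than in every TLR4-WT library. It was 894, 842 and 804 FPKM in mock-treated TLR4-K730R, below the 1810 FPKM of the lowest TLR4-WT library and above the 718 FPKM of the highest TLR4-K810R library. Ifit3 was at 7.22, 6.00 and 6.01 FPKM in TLR4-K730R, with a difference of −0.60 between the mutants (SE 0.16, adjusted p = 0.132). Zbp1 was at 6.16, 6.09 and 7.25 FPKM in TLR4-K730R and 6.88, 6.09 and 6.99 FPKM in TLR4-K810R, and the libraries overlapped. No gene of the interferon-stimulated list was among the 8 genes called between the mutants. The intestinal gene Reg3b was at 11.7, 22.6 and 24.98 FPKM in TLR4-K730R, with a difference of 0.87 (SE 0.65, adjusted p = 0.748). Of the 3 mock-treated groups, TLR4-WT had both the highest interferon-stimulated and the lowest intestinal sums, and the part of either in the other was not tested.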

How the data were processed

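RNA from peritoneal macrophages was sequenced on an Illumina platform by a service provider. The authors deposited 1 table per library with FPKM values of transcript events (first exons, last exons and splicing events). The aligner and the program are not given in the sources used here. The submitters' processing notes name a human build, whereas the coordinates match mouse GRCm38, whose GENCODE vM21 annotation supplied 14126 of 14138 gene numbers. A gene's value was whichever was larger, the sum of its first-exon or of its last-exon FPKM, and entries lying off the named gene (5.99% of FPKM) were dropped. Genes with at least 1 FPKM in 3 or more of 18 libraries were kept. Their log2(FPKM + 1) values were fitted over all 6 groups with limma 3.58.1 (R 4.3.3; Python 3.11.15, pandas 2.3.3 for tables) with an intensity trend, and p-values were adjusted by the Benjamini-Hochberg method over 9707 genes. Read counts were not analysed here, so no count test was run and depth is unknown. Members and gene lists were chosen with earlier results of these data known. Genes named come from the Tlr4 complex, the 15 largest rises and falls, the called and most abundant members of each list and those called against TLR4-K730R. Stat2, Irf9, Isg15, Hp, Acp5, Tgfbi, Adamtsl5, Ralgapa2 and the genes of families grouped by name were chosen after their values were seen. Alternatives were another pseudocount, filter, scaling, gene value, weighting, design or threshold, and leaving out each library.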

Additional observations from a re-analysis of the deposited data

Results flagged for a closer look

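For 12 genes the response to LPS differed between TLR4-K810R and TLR4-WT by the interaction test of limma at an adjusted p below 0.01. Values are the TLR4-K810R response minus the TLR4-WT response on the log2(FPKM + 1) scale. In 10 genes the value was above 0. Of these, 5 were lower in mock-treated TLR4-K810R and antiviral, antigen-presenting or chemotactic in role: H2-M2 with 2.66, Oas3 with 2.39, Ifit3 with 2.17, Ccl5 with 1.79 and the nucleic acid sensor Zbp1 with 1.39. Ccl5 was at 80.2, 76.2 and 82.2 FPKM in mock-treated TLR4-WT and at 22.1, 18.5 and 19.2 FPKM in mock-treated TLR4-K810R, but at 7818, 9272 and 9345 FPKM against 9915, 6498 and 7539.7 FPKM after LPS. The scavenger receptor Marco had 1.20, the tartrate-resistant phosphatase Acp5 had 1.03 and the matrix protein Tgfbi had 1.02. Acp5 and Tgfbi were lower in mock-treated and above TLR4-WT in LPS-treated TLR4-K810R, and both lost their mock-treated calls in each of the 6 fits that left out 1 library. Adamtsl5 had 1.24 and Ralgapa2 2.51, neither of them called in mock-treated cells.

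In the other 2 genes the value was below 0. Plac8 had −3.49, with 0.540, 0.897 and 0.736 FPKM in mock-treated TLR4-WT against 4.998, 2.89 and 8.07 FPKM in TLR4-K810R, and 23.5, 13.9 and 13.2 FPKM against 4.53, 4.61 and 3.87 FPKM after LPS. Mt2 had −2.30, with all LPS-treated TLR4-K810R libraries (57.4, 58.7 and 54.3 FPKM) below all LPS-treated TLR4-WT libraries (114, 98.7 and 74.4 FPKM). The sign of the difference between genotypes turned with LPS for both genes.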

How the results depend on the processing

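Of 82 genes called in mock-treated cells and examined singly, which include every called gene named here, 0 changed sign under the alternatives that tested them. Of these, 36 lost their call in no fit that left out a library and 15 lost it nowhere. Between mock-treated TLR4-K810R and TLR4-WT the number of genes called was 153 (90 higher, 63 lower). It was 27 (8 and 19) with only the groups of the comparison fitted, 342 (226 and 116) at an adjusted p below 0.05, and 45 higher genes with a filter at 5 FPKM. Leaving out 1 library gave 50 to 129 genes, 15 to 84 higher and 34 to 49 lower. Between mock-treated TLR4-K810R and TLR4-K730R the count of 8 became 20 with no filter on low values, 17 with library weights, 1 with only these groups fitted, 45 at an adjusted p below 0.05 and 5 with first exons alone, and 3 to 11 without 1 library. After LPS the count of 13 became 8 with no filter, 366 with library weights, 0 with only these groups, 213 at an adjusted p below 0.05 and 8 with first exons alone, and 1 to 283 without 1 library. The 12 genes with different LPS responses became 37 with library weights, 57 at an adjusted p below 0.05 and 6 to 13 without 1 library. With a replicate block the counts were 107 in mock-treated cells, 5 against TLR4-K730R, 3 after LPS and 6 for the LPS responses. After each group's mean was removed, same-numbered mock-treated TLR4-K810R and TLR4-WT libraries correlated at −0.0255, 0.0261 and −0.0216. Differently numbered ones correlated at −0.0276 to 0.0471. Such values cannot show whether the replicate numbers pair the samples. Where leaving out a library left 2 in a group, the spread came from all groups. The causes of these changes were not tested. With 3 libraries per group and no known depth, differences of genes near 1 FPKM are the least certain.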
